A study of Mus musculus with 15 samples.

Results

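Akap12, Akap7 and Akap8l are 3 genes named for A-kinase anchoring proteins, and they were taken by symbol from a table of 55490 mouse genes, 21417 of them protein-coding. They were selected on their shares of the protein-coding counts in these same libraries, so those shares and the differences between groups are given here as a description, without a p-value. Whether a fit called any of the 3 is likewise description and not a test of them. The assay was ribosome profiling of eggs and embryos from B6D2F1 females carrying Rpl22 HA, a tagged large-subunit protein through which ribosomes and the RNA they protect were pulled down. The females were Eif4e1b KO or Eif4e1b Het, and Eif4e1b is an egg-expressed relative of the cap-binding protein eIF4E. The stages were the M2 egg (2 Het and 2 KO libraries), the PN5 zygote (3 Het and 3 KO) and the early 2-cell embryo, labelled E2C (3 Het and 2 KO), which makes 15 libraries in 6 groups. All groups carried the tagged Rpl22, and every control group was heterozygous for Eif4e1b. The genotype is that of the female, and nothing in the labels gives the genotype of the embryo itself. Each egg or zygote library was a pool of about 200 cells, and each early 2-cell library a pool of about 100 embryos. No label says that the pools of a group came from different females, so the spread between libraries may be partly technical.

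A-kinase anchoring proteins are scaffolds that bind the regulatory subunits of protein kinase A, the kinase switched on by cyclic AMP, and hold the enzyme at one place in the cell beside its substrates, phosphatases and phosphodiesterases. In the mammalian oocyte, cyclic AMP and protein kinase A keep meiosis arrested in prophase until ovulation, and the fall of cyclic AMP allows maturation to the M2 egg. Akap12 (gravin) is a scaffold at the plasma membrane and cell cortex that also binds protein kinase C and calcineurin. Akap7 (also called AKAP15 or AKAP18) has short forms that attach to membranes through lipids and hold protein kinase A beside ion channels. Akap8l (HA95) is a zinc-finger protein of the nucleus, a relative of Akap8 (AKAP95) that associates with chromatin and the nuclear envelope.

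The levels below are shares of the counts in protein-coding genes, because rows of ribosomal RNA took 93.4% to 98.4% of each library. Protein-coding counts ran from 5997 to 47398 in the 10 egg and zygote libraries and from 1059 to 7793 in the 5 early 2-cell libraries. A count of 0, read as under 3 counts, therefore allowed a share of up to 0.00633% to 0.05% in a single egg or zygote library and 0.0385% to 0.283% in a single early 2-cell library. These limits and the 95% intervals below (exact Clopper-Pearson) hold for counting error alone, because amplified reads with no molecular identifier do not count molecules. Eif4e1b had 0 counts in all 15 libraries, which left no check of the Het and KO labels by the targeted gene. Of the 21417 protein-coding rows 3790 had a count in any library. Of 20 oocyte markers 10 had a count (511 counts, 351 of them of Npm2 in 2 libraries), and Zp1, Zp2 and Zp3 were at 0. Of 17 two-cell markers 4 had a count (11 counts), and of 13 blood and sperm markers 1 had a count (1 count, of Ptprc).

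Among the egg and zygote libraries, 4 stood apart on the first principal component of 308 genes, which took 27.4% of the variance and was computed without Akap12, Akap7 and Akap8l. They were M2 Het replicate 1, M2 KO replicate 2, PN5 Het replicate 1 and PN5 KO replicate 2, 1 library of each egg and zygote group, with scores from -22.6 to -18.3 against -1.7 to 33.3 for the others. They were told apart by the largest gap in these scores, and the labels name no batch. Each had the most protein-coding genes with a count in its group, from 1679 in PN5 Het replicate 1 against 1131 and 461 in the other PN5 Het libraries to 1160 in PN5 KO replicate 2 against 914 and 1159, a lead of 1 gene. They are marked by squares in the plots, and the differences between groups are also given without them. At the other end of the scores, PN5 KO replicate 3 lay at 33.3, with the next library, PN5 Het replicate 3, at 18.2.

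Akap12 (ENSMUSG00000038587) lies on chromosome 10 from 4266329 to 4359471 (GRCm38), and Akap7 (ENSMUSG00000039166) lies on the same chromosome from 25169090 to 25299217, 20809618 bases away. The only other genes overlapping Akap7 in the RefSeq annotation, the pseudogene Gm7791, the snoRNA Gm25016 and the lncRNA Gm40617, had 0 counts, and Akap12 overlaps the lncRNA Gm40592, which is not a row of the table. Zbtb2, which starts 7602 bases beyond the end of Akap12, had 0 counts, and Epb41l2, the next protein-coding gene beyond Akap7, had 95. Akap8l (ENSMUSG00000002625) lies on chromosome 17 from 32321424 to 32350616, with 185 bases between it and its paralog Akap8. How reads shared by such paralogs were counted is not stated in the labels, so the split between Akap8l and Akap8 is uncertain. Wiz, 3430 bases beyond the other end of Akap8l, had 0 counts.

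Akap12, the cortical scaffold, was read in 13 of the 15 libraries with 1210 counts, and its share was highest in PN5 zygotes of Het females. In M2 Het eggs it took 0.249% of the protein-coding counts in replicate 1 (52 counts) and 0.409% in replicate 2 (91 counts). In M2 KO eggs the shares were 0.55% (33 counts) and 0.192% (91 counts). The M2 groups therefore overlapped, and the 95% intervals of the replicates were apart in both groups. In PN5 Het zygotes the shares were 0.615%, 0.789% and 1.8% in replicates 1 to 3 (227, 262 and 155 counts). In PN5 KO zygotes they were 0.227%, 0.0254% and 0.623% (35, 3 and 249 counts). In share of protein-coding counts PN5 KO replicate 3 thus lay just above the lowest Het library. The other 2 KO libraries lay below all 3 Het libraries. The order changed when Akap12 was taken relative to all counts, ribosomal RNA rows included. PN5 KO replicate 3 then lay above all 3 PN5 Het libraries, and PN5 Het replicate 3 was the lowest of those 3. The other 2 KO libraries lay below all 3 Het libraries on that scale too.

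Early 2-cell libraries held only 12 counts of Akap12 in all, 0, 8 and 1 in the Het replicates (up to 0.484% in replicate 2 and 0.0128% in replicate 3) and 0 and 3 in the KO replicates (0.264% in replicate 2). Group means were 0.329 ± 0.113% in M2 Het (SD, n = 2), 0.371 ± 0.253% in M2 KO (n = 2) and 1.07 ± 0.64% in PN5 Het (n = 3). PN5 KO stood at 0.292 ± 0.304% (n = 3), and the early 2-cell groups at 0.166 ± 0.276% for Het (n = 3) and 0.132 ± 0.187% for KO (n = 2). In the order PN5 Het, M2 KO, M2 Het, PN5 KO, early 2-cell Het, early 2-cell KO, the only neighbours whose libraries did not overlap were the first pair, PN5 Het and M2 KO. Of the 12 pairs of libraries within a group, 8 had 95% intervals that did not overlap, so replicates of Akap12 differed by more than counting error in most pairs.

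Akap7 was read in every library, with 1292 counts, and it too was highest in PN5 Het. Its shares were 0.282% and 0.71% in M2 Het (59 and 158 counts) and 0.434% and 0.297% in M2 KO (26 and 141 counts). In PN5 Het they were 0.634%, 0.949% and 0.813% (234, 315 and 70 counts), and in PN5 KO 0.585%, 0.229% and 0.365% (90, 27 and 146 counts). All 3 PN5 KO libraries thus lay below all 3 PN5 Het libraries in share of protein-coding counts. The gap between 0.585% and 0.634% was narrower than the intervals of those libraries, 0.47% to 0.718% and 0.555% to 0.72%. Relative to all counts, ribosomal RNA rows included, the groups overlapped: PN5 Het replicate 3 lay below PN5 KO replicates 1 and 3. The early 2-cell shares were 0.283%, 0.181% and 0.141% in Het (3, 3 and 11 counts) and 0.124% and 0.616% in KO (2 and 7 counts).

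Group means of Akap7 were 0.798 ± 0.158% in PN5 Het (SD, n = 3), 0.496 ± 0.302% in M2 Het (n = 2) and 0.393 ± 0.18% in PN5 KO (n = 3). They were 0.37 ± 0.348% in early 2-cell KO (n = 2), 0.366 ± 0.0962% in M2 KO (n = 2) and 0.202 ± 0.0732% in early 2-cell Het (n = 3). Neighbours in this order overlapped, except M2 KO and early 2-cell Het at its low end. Intervals were apart in 4 of the 12 within-group pairs, against 8 for Akap12. The share over all 15 libraries was 0.443 ± 0.259% for Akap7 and 0.416 ± 0.46% for Akap12, so the SD was smaller relative to the mean for Akap7. The 2 means are not compared as levels, because footprint counts grow with coding length and no lengths were used.

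**Figure D1:**
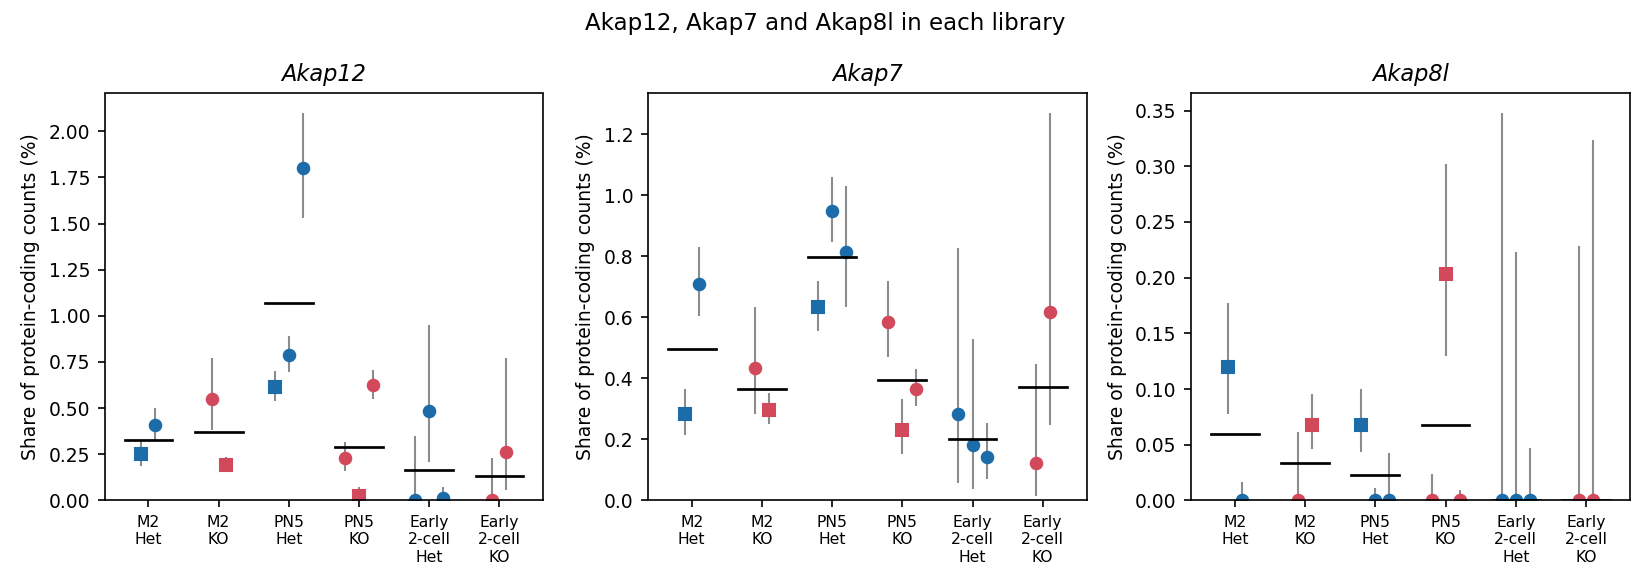
Share of protein-coding counts (%, vertical axis, a separate scale in each panel) of Akap12, Akap7 and Akap8l in each of the 15 libraries, by stage and genotype of the female (blue, Het; red, KO). Points are libraries, vertical lines their exact 95% intervals for counting error, short black lines group means, and squares the 4 libraries apart on the first component; the PN5 Het points are the highest group for Akap12 (0.615% to 1.8%) and Akap7 (0.634% to 0.949%), and Akap8l is above 0 only in the squares.

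Akap8l, the nuclear member, was read in 4 libraries only, with 106 counts in all. M2 Het replicate 1 held 25 counts (0.12%), M2 KO replicate 2 held 32 (0.0675%), PN5 Het replicate 1 held 25 (0.0677%) and PN5 KO replicate 2 held 24 (0.203%). These are exactly the 4 libraries apart on the first component, and without them Akap8l has 0 counts. Every other library had 0 counts, and for the deepest of them, PN5 KO replicate 3 and PN5 Het replicate 2, the 95% interval ended at 0.00922% and 0.0111%. The 95% interval of PN5 Het replicate 1, 0.0438% to 0.0999%, did not reach that of its fellow replicate 2, so within 1 group Akap8l was either well above the detection limit or below it. Group means, from 0.0226 ± 0.0391% in PN5 Het (SD, n = 3) to 0.0678 ± 0.117% in PN5 KO (n = 3), each rest on a single library, as do 0.0598 ± 0.0846% in M2 Het (n = 2) and 0.0338 ± 0.0477% in M2 KO (n = 2). In no comparison of groups did its libraries separate.

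Detection of Akap8l in few libraries was compared with genes of like abundance. Of 216 protein-coding genes with 70.7 to 159 counts (1.5 times either way from 106), 45 had counts in 4 libraries or fewer, and the median was 8 libraries. Akap12 and Akap7, by contrast, were in 13 and 15 libraries, where genes of like counts had medians of 11.5 and 11. Among 87 genes with at least 20 counts in exactly 4 libraries, 8, Akap8l among them, had them in these 4 libraries, and the next most frequent set of 4 libraries was shared by 4 genes. All 5 early 2-cell libraries had 0 counts of Akap8l, but together they held 13260 protein-coding counts, which allow a share of up to 0.0226%. The 2-cell Het libraries allow up to 0.0286%, near the 0.0318% that the PN5 Het libraries gave when pooled, so a fall of Akap8l after the zygote was not detectable at this depth.

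**Figure D2:**
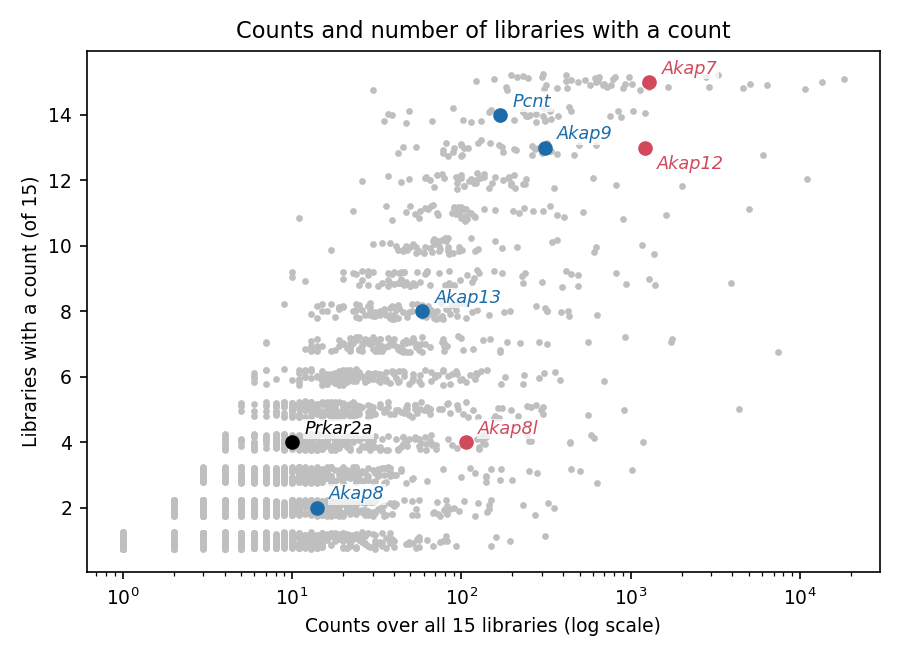
Total counts over the 15 libraries (horizontal, log scale) against the number of libraries with a count (vertical, points spread slightly up and down) for protein-coding genes with a count (grey). Akap12, Akap7 and Akap8l are red, other anchoring proteins blue and the protein kinase A subunit Prkar2a black; Akap8l has 106 counts in 4 libraries, while Pcnt has 170 in 14.

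The same 4 libraries were the low ones for the other 2 genes in share of protein-coding counts. Within each of the 4 egg and zygote groups, Akap12 and Akap7 both had their lowest share in the library that stood apart. Of 311 genes with at least 100 counts, 15 (4.82%), both genes included, were lowest there in all 4 groups, and 45 were highest there in all 4. In M2 eggs, for example, the library apart held Akap7 at 0.282% in Het and 0.297% in KO, against 0.71% and 0.434% in the other library of each group. Akap12 in M2 eggs was at 0.249% and 0.192% in the libraries apart, against 0.409% and 0.55%. Thus Akap8l was read where Akap12 and Akap7 were at their lowest in the group, and the part of the library in this was not tested.

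**Figure D3:**
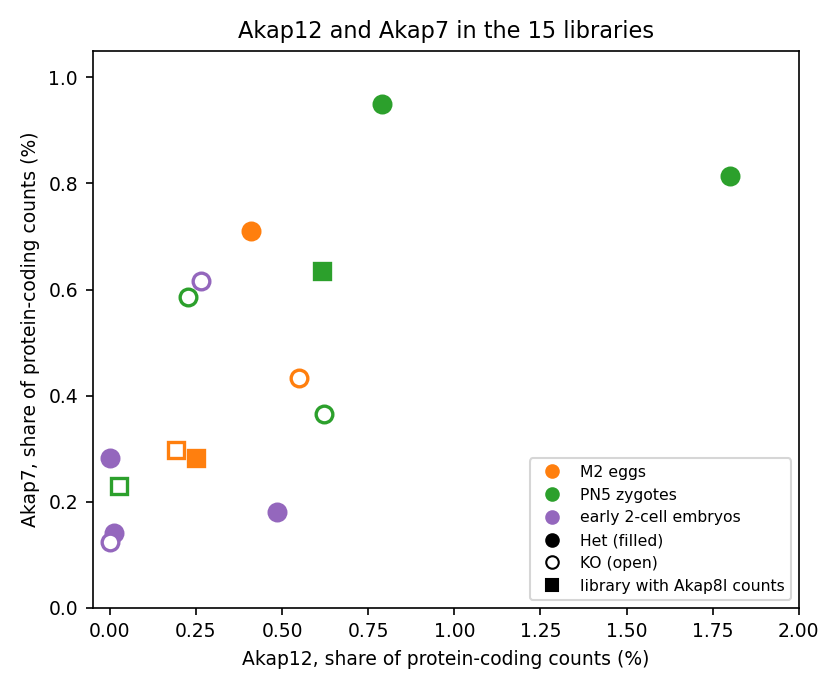
Share of protein-coding counts of Akap12 (horizontal, %) against that of Akap7 (vertical, %) in each library, coloured by stage, filled for Het and open for KO. Squares are the 4 libraries with Akap8l counts; the 3 PN5 Het libraries lie to the upper right, and PN5 KO replicate 2, with 0.0254% Akap12 and 0.229% Akap7, lies at the lower left beside early 2-cell libraries.

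Akap12 and Akap7 tended to be high in the same libraries. Across the 15 libraries Pearson's r between their shares, on the log2 scale with 0.5 counts added, was 0.759 (Spearman's coefficient 0.736), and across the 10 egg and zygote libraries it was 0.748 (Spearman's 0.745). Both shares come from the same libraries and have the same denominator, and the PN5 Het libraries are high for both. Against the log2 number of protein-coding counts in the egg and zygote libraries, r was 0.0167 for Akap12 and -0.0268 for Akap7. Over all 15 libraries it was 0.347 and 0.32. The shared pattern is given as a description of these libraries.

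Zygotes of KO females had lower mean shares of Akap12 and Akap7 than zygotes of Het females, with log2 ratios of the means of -1.87 and -1.02. In the edgeR fit of all 495 genes that passed the low-count filter, where library sizes were scaled by TMM over all counts, the log2 fold changes were -1.67 (SE 1.48) and -1.07 (SE 0.95). Neither gene passed an adjusted p of 0.05, and nor did any other gene: 0 of 495 were called (a background of 0%), and 35 had an unadjusted p under 0.05. DESeq2 called 2 genes and limma-voom 0, none of them Akap12, Akap7 or Akap8l. In share of protein-coding counts the libraries of the 2 genotypes did not overlap for Akap7, lower in KO, as for 3.03% of the tested genes. For Akap12 and Akap8l they overlapped. Relative to all counts, ribosomal RNA rows included, the libraries overlapped for Akap7 as well. A pool with less Akap7 on ribosomes in every zygote and a pool with fewer zygotes that carry it cannot be told apart in these data.

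The PN5 difference had the same sign in the libraries that stand apart, 1 Het and 1 KO, and in the other PN5 libraries. The genes were selected on these same shares, so this is description and not support. In the libraries apart Akap12 was at 0.615% in Het and 0.0254% in KO, and Akap7 at 0.634% and 0.229%. In the others Akap12 was at 0.789% and 1.8% in Het against 0.227% and 0.623% in KO, and Akap7 at 0.949% and 0.813% against 0.585% and 0.365%. Fitted without the 4 libraries, the log2 fold changes were -1.46 for Akap12 and -0.87 for Akap7. Leaving out PN5 KO replicate 2 gave -0.92 and -0.5, and leaving out PN5 KO replicate 3 gave -3.02 for Akap12, so the size of the difference depended on these 2 libraries. Across the 23 other settings tried, neither gene changed sign here. Those settings reuse the same PN5 libraries, so they are no independent check of the sign.

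Markers of cumulus and granulosa cells, the somatic cells around the egg, had a summed share of 0% to 0.0677% in PN5 Het and 0.212% to 0.888% in PN5 KO, without overlap, and 7 of the 20 markers had a count in any library. Cyp11a1, a steroid-making enzyme, held 561 of their 695 counts, with 0.305%, 0% and 0.85% in PN5 KO replicates 1 to 3 and 0% in PN5 Het. The 2 markers that passed the filter were not called by edgeR at PN5 (adjusted p = 0.696 for Cyp11a1 and 1 for Vcan). Star, Has2, Tnfaip6, Ptgs2, Amh, Fshr and Lhcgr were at 0. In M2 eggs the summed share was 0.0584% to 0.823% in Het and 0% to 0.116% in KO, in the opposite order of means, and in early 2-cell embryos it was at most 0.0128%. The part of these cells in the PN5 result was not tested.

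In M2 eggs the genotypes overlapped in share of protein-coding counts for Akap12, Akap7 and Akap8l. Of the tested genes, 24% did not overlap in one direction or the other. The fitted log2 fold change, KO over Het, was -0.16 (SE 1.77) for Akap12, and its sign turned with the denominator: the mean share of protein-coding counts was higher in KO by 0.17. For Akap7 the fit gave -0.77 (SE 1.16), and 0.52 without M2 Het replicate 2, which leaves 1 M2 Het library. Without the 4 libraries apart the values were -0.2 for Akap12 and -1.34 for Akap7. That fit leaves 1 M2 library of each genotype, Het replicate 2 and KO replicate 1. The fit called 0 of 495 genes (0%), with 6 at an unadjusted p under 0.05, and DESeq2 called 2. In early 2-cell embryos the genotypes overlapped for the 3 genes as well (11.7% of tested genes did not), with -0.96 (SE 1.9) for Akap12 and 0.49 (SE 1.13) for Akap7. Each rests on 3 or fewer counts in most libraries, and leaving out Het replicate 2 turned Akap12 to 2.68, while leaving out KO replicate 2 turned Akap7 to -0.72. There too 0 of 495 genes were called (0%), with 25 at an unadjusted p under 0.05 and 4 called by DESeq2.

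Whether the genotype difference itself changed between stages was asked by a contrast of contrasts. From M2 to PN5 the KO effect on Akap12 changed by -1.51 (SE 2.3, log2) and that on Akap7 by -0.29 (SE 1.5). From PN5 to the early 2-cell stage the changes were 0.71 (SE 2.42) and 1.56 (SE 1.47). Each change was smaller than its SE except that of Akap7 after the zygote, and 0 of 495 genes were called (0%) in either contrast, with 26 and 25 at an unadjusted p under 0.05 and 0 called by DESeq2. The change from M2 to the early 2-cell stage, -0.8 (SE 2.57) and 1.27 (SE 1.62), did not pass either, with 0 of 495 called (0%), 18 at an unadjusted p under 0.05 and 0 called by DESeq2. The lower PN5 KO levels are therefore not shown to be particular to the zygote.

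**Figure D4:**
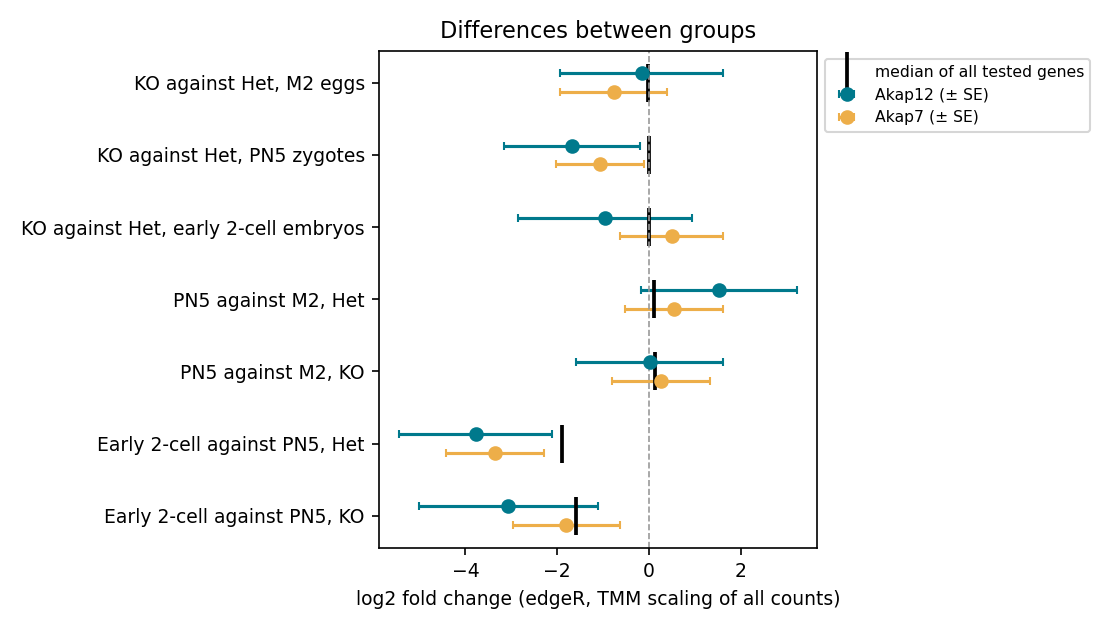
Log2 fold changes of Akap12 (teal) and Akap7 (orange) from the edgeR fit with TMM scaling, with bars of 1 SE, for 7 comparisons of groups (rows). Black strokes are the median of all 495 tested genes, which lay at -1.9 and -1.6 for the early 2-cell stage against PN5; at PN5, KO against Het, both genes lie below 0 (-1.67 and -1.07) and the median is at 0.

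From the M2 egg to the zygote, the mean share of Akap12 was higher in Het and about level in KO. In Het it was higher in PN5 by 1.7 on the log2 scale, and the fit gave 1.52 (SE 1.7) against a median of 0.1 over all tested genes. Its PN5 Het libraries all lay above its M2 Het libraries, as for 7.47% of tested genes in that direction. In KO the fit gave 0.01 (SE 1.61), and the sign turned with the denominator, from -0.35 on protein-coding counts to 0.32 on all counts outside ribosomal RNA. In KO the 3 genes overlapped between the stages, while 7.68% of the tested genes did not. Akap7 gave 0.55 (SE 1.07) in Het and 0.26 (SE 1.06) in KO, and its groups overlapped in both genotypes. The difference between the genotypes in this step is the change of the KO effect from M2 to PN5 given above, which did not pass. Without the 4 libraries apart, which leaves 1 M2 library of each genotype, Akap12 gave 1.32 in Het and 0.06 in KO, and Akap7 0.06 and 0.53. The fit called 0 of 495 genes in Het (0%) and in KO (0%), with 17 and 21 at an unadjusted p under 0.05, and DESeq2 called 4 and 1.

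From the zygote to the early 2-cell embryo, Akap12 and Akap7 were both lower in Het, by more than the median of the tested genes. The log2 fold changes in Het were -3.78 (SE 1.66) for Akap12 and -3.36 (SE 1.06) for Akap7, while the median over all tested genes was -1.9 on that scale. Relative to this median Akap12 was at -1.88 and Akap7 at -1.46, and the mean shares of protein-coding counts differed by -2.69 and -1.98. For both genes every early 2-cell Het library lay below every PN5 Het library, as for 9.49% of the tested genes. The edgeR fit called 0 of 495 (0%) with 97 at an unadjusted p under 0.05. DESeq2 called 40 genes, Akap7 among them, and limma-voom called 11, none of the 3 among them. The call of Akap7 is description only, because the gene was selected on its shares in these libraries. Fitted without the 4 libraries, the values were -4.02 and -3.51, and without early 2-cell Het replicate 2, which holds 8 of the 9 counts of that group, Akap12 was at -7.43.

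In KO the early 2-cell values lay nearer the median of the tested genes, and the groups overlapped for all 3 genes, while 24.2% of the tested genes did not overlap. The fit gave -3.07 (SE 1.95) for Akap12 and -1.8 (SE 1.16) for Akap7 against a median of -1.6, which leaves -1.47 and -0.2 relative to it. As shares of protein-coding counts the means differed by -1.14 and -0.09. Without the 4 libraries the fitted values were -3.57 and -2.19. The difference between genotypes in this step is the contrast already given (0.71 and 1.56), which did not pass. Of the 495 genes 0 were called (0%), with 43 at an unadjusted p under 0.05 and 13 called by DESeq2. The PN5 Het libraries enter 3 of these comparisons, against PN5 KO, M2 Het and early 2-cell Het, so a high level in those 3 libraries appears in each of them.

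The tested genes whose levels over the 15 libraries were most like each of the 3 were listed by Pearson's r of log2 levels, relative to protein-coding counts, among 424 genes. Akap12 was most like Rnf214 (r = 0.876, 260 counts), Zbtb18 (0.855, 151 counts) and Anp32b (0.848, 10954 counts), where the median over all genes was 0.029. Rnf214, a RING-finger protein, was also highest in PN5 Het, at 0.271 ± 0.299% against 0.105 ± 0.0543% in PN5 KO (SD, n = 3 each). Anp32b, an acidic nuclear histone chaperone, was instead highest in M2 eggs, at 5.81 ± 1.24% in Het and 5.64 ± 2.96% in KO (SD, n = 2 each), and low in the early 2-cell stage. Its group means thus ran in another order than those of Akap12.

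Akap7 was most like Nucks1 (r = 0.884, 683 counts), Septin11 (0.819, 233 counts) and Psmd1 (0.782, 177 counts), with a median of 0.038 over all genes. Nucks1, a chromatin-bound nuclear protein, stood at 0.48 ± 0.14% in PN5 Het and 0.221 ± 0.0853% in PN5 KO (SD, n = 3 each). Psmd1, a subunit of the proteasome cap, stood at 0.181 ± 0.0752% and 0.0241 ± 0.0108%. Both had their highest group mean in PN5 Het, as Akap7 did. Akap8l was most like Nktr (0.993), Arhgap31 (0.991) and Rai1 (0.982), with 57, 65 and 56 counts in 4 libraries each, against a median of 0.171. These high values describe counts in few libraries and zeros elsewhere.

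The other anchoring proteins had fewer counts. Of 30 listed genes 28 were rows of the table, 13 had a count, 7 had at least 10 counts, and all together had 675 counts, against 2608 for Akap12, Akap7 and Akap8l. Akap1, which anchors the kinase at mitochondria, and Akap10 and Akap11 were at 0 in every library. So were most protein-coding rows, of which 3790 of 21417 had a count. The 2 that passed the filter, Akap9 and Pcnt, encode large scaffolds of the centrosome and Golgi (Akap9) and of the pericentriolar material (Pcnt). Neither was called by edgeR in any of the 7 comparisons of groups. In PN5 zygotes both were lower in KO, as Akap12 and Akap7 were. The log2 fold changes there were -0.47 (SE 1.13) for Akap9 and -0.96 (SE 1.31) for Pcnt.

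Akap9 had 312 counts in 13 libraries. Its shares were 0.177% and 0.0404% in M2 Het, 0.283% and 0.156% in M2 KO, and 0.122%, 0.0964% and 0.244% in PN5 Het. In PN5 KO they were 0.0974%, 0.212% and 0.08%. Unlike Akap12 and Akap7, Akap9 was thus not highest in PN5 Het: its group mean there was 0.154 ± 0.0788% (SD, n = 3) and in M2 KO 0.22 ± 0.0901% (n = 2). In the early 2-cell stage it had 1, 0 and 0 counts in Het and 2 and 2 in KO. The single Het count is a pooled share of 0.00952% (95% interval 0.000241% to 0.053%), against 0.124% in PN5 Het (0.101% to 0.152%). The edgeR log2 fold change from PN5 to the early 2-cell stage in Het was -4.34 (SE 1.51, adjusted p = 0.183).

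Pcnt, with 170 counts in 14 libraries, was highest in early 2-cell embryos. Its shares were 0.0526% and 0.027% in M2 Het, 0.0167% and 0.057% in M2 KO, 0.0731%, 0.0422% and 0.0813% in PN5 Het, and 0.0455%, 0.0254% and 0.03% in PN5 KO. In early 2-cell embryos they were 0%, 0.242% and 0.539% in Het (0, 4 and 42 counts) and 0.494% and 0.088% in KO (8 and 1 counts). Thus 4 of the 5 early 2-cell libraries lay above every egg and zygote library, 1 of them on a single count. The edgeR log2 fold change against PN5 in Het was 1 (SE 1.31, adjusted p = 0.609). Among the egg and zygote groups the mean share of Pcnt was highest in PN5 Het, at 0.0655%. It was 0.0336% in PN5 KO, 0.0398% in M2 Het and 0.0368% in M2 KO.

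**Figure D5:**
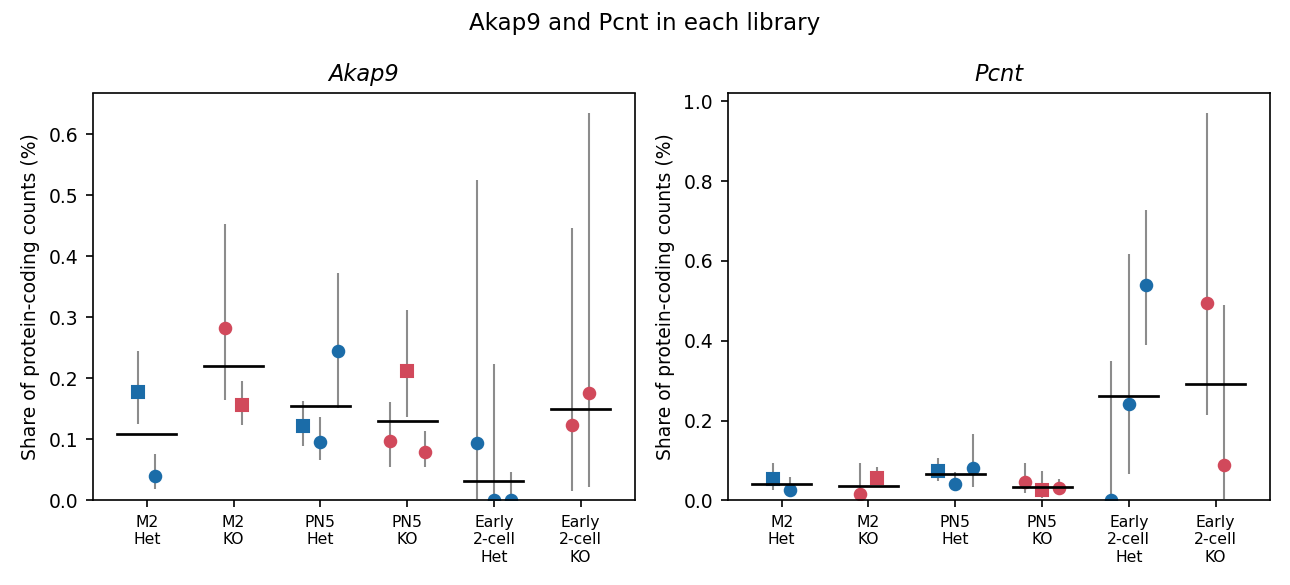
Share of protein-coding counts (%, a separate scale in each panel) of Akap9 and Pcnt in each library, drawn as for Akap12, Akap7 and Akap8l (blue, Het; red, KO; lines, exact 95% intervals; black lines, group means; squares, the 4 libraries apart). Pcnt lies between 0.0167% and 0.0813% in the egg and zygote libraries and up to 0.539% in early 2-cell embryos, and Akap9 has 1 count in early 2-cell Het.

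The remaining anchoring proteins were too sparse to test. Akap13 had 59 counts in 8 libraries, 22 of them in early 2-cell Het replicate 3 (0.282%). Nbea, a trafficking scaffold, also had 59 counts in 8 libraries, most of them in M2 KO replicate 2 (24) and PN5 Het replicate 1 (19), both among the libraries apart. Pakap had 21 counts in 6 libraries, and Ezr, which links actin to the membrane, had 15, all in M2 Het replicate 1. Akap8, the paralog and neighbour of Akap8l, had 14 counts, 3 in PN5 Het replicate 1 and 11 in PN5 Het replicate 2. It had 0 counts in 3 of the 4 libraries where Akap8l was read, so the paralogs were read together in 1 library.

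Protein kinase A itself, the enzyme that anchoring proteins hold, had few counts. Most genes had none: 3790 of the 21417 protein-coding rows had a count in any library. The share of this list with a count was near that, so it is no result about the kinase. Of 10 genes for its subunits and inhibitors 2 had a count, Prkar2a (a type II regulatory subunit, 10 counts in 4 PN5 libraries) and Prkacb (a catalytic subunit, 2 counts), and none passed the filter. Over all libraries the list had 12 counts. Among 36 genes of cyclic AMP synthesis, breakdown and sensing 11 had a count, 401 counts in all. Gnas, the stimulatory G protein subunit that turns on adenylyl cyclase, had 242 counts in 12 libraries. M2 KO replicate 2 held 122 of them (0.257%), while M2 KO replicate 1 held 0. Pde3b, Gnai2 and Adcy9 had 55, 42 and 17 counts. Gnas was the only tested gene of this list, and it was called in none of the 7 comparisons of groups.

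Targets of the kinase and enzymes docked by the scaffolds gave a few well-read genes. Of 23 targets and effectors in the egg 10 had a count (1321 counts), led by Crebbp, a coactivator of the cyclic AMP response factor Creb1, with 1141 counts in 15 libraries. Arpp19, whose phosphorylation controls the phosphatase PP2A at meiosis, had 94 counts, Itpr1, the calcium release channel, 33, and Wee2, the oocyte kinase that inhibits Cdk1, 18. Of 23 phosphatases and kinases docked by anchoring proteins 9 had a count (2887 counts), of which Rock1, a kinase of the actin cytoskeleton, had 2778. In PN5 zygotes Rock1 was at 0.615%, 0.78% and 0.743% in Het and 1.34%, 2.71% and 0.965% in KO. The edgeR log2 fold change of Rock1 there was 0.93 (SE 0.97, adjusted p = 1). Rhoa, Ppp3ca and Ppp1cb had 39, 31 and 22 counts.

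Of 24 genes listed as nuclear partners of Akap8 and Akap8l, direct or not, 14 had a count (2078 counts), and 4 passed the filter. These were Smc4, a condensin subunit (1027 counts in 14 libraries), Ncor1, a corepressor (699 in 6), Hnrnpm, a splicing factor (128 in 9), and Kmt2a, a histone methyltransferase (124 in 4). In PN5 zygotes their median log2 fold change, KO over Het, was -1.6 against 0 over all tested genes, with 1 of the 4 higher and 3 lower. Ncor1 had 295 counts in PN5 Het (0.439%, 0.401% and 0%) and 0 in PN5 KO, at least 83.9-fold lower with a floor of 3 counts over the group, and the groups overlapped at 0. With Ncor1 at that bound the median was again -1.6, which could not move because Ncor1 stayed the lowest of the 4. None of the 4 was called by edgeR in any of the 7 comparisons of groups (adjusted p = 0.696 for Ncor1 at PN5).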

How the data were processed

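Per the labels' protocols, RNase I digestion (100 units, 45 min) was followed by binding of tagged ribosomes to anti-HA beads for 4 h and small-RNA libraries of 22 PCR cycles. The deposited table holds estimated counts per gene for all 15 libraries, as whole numbers that the authors had not scaled between libraries. The tools were STAR 2.7.6a, cutadapt, deepTools 3.5.1 and StringTie 2.1.4 on GRCm38, per the submitters' processing notes. How the counts were derived, and whether by strand, is not stated there.

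Symbols of the table were matched to RefSeq (GRCm38.p6) for biotype and position: 39101 by symbol, 117 by an older symbol, 16272 unmatched. Its whole numbers count as rounded expected counts here. Shares have protein-coding counts as denominator. In R 4.3.3, edgeR 4.0.16 fitted 6 group means to all 15 libraries (filterByExpr with a minimum count of 10, TMM, robust quasi-likelihood, 9 residual degrees of freedom), which tested 495 genes, 425 of them protein-coding and Akap12, Akap7 and Akap8l among them. Calls are Benjamini-Hochberg adjusted p under 0.05, and the SE is the fold change over the root of F. Alternatives were DESeq2 1.42.0, limma-voom (limma 3.58.1), other scalings and denominators, no filter, protein-coding rows only, a replicate block and each library left out.

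Named genes were the 3, the 3 tested genes most like each (prior count 2), other anchoring proteins with at least 10 counts, up to 4 leading genes of each further list, and chromosomal neighbours. The 3 genes and 10 lists were chosen with earlier results of these data known. Genes ranked beside the 3 by level were not named, since no gene lengths were used, and a planned description of protein composition was not made, since no protein sequences were used here. Same-numbered replicates did not deviate together (correlations of deviations from group means -0.359 to 0.0885), so the numbers were not taken as pairs. No 2 libraries of a group agreed within sampling noise (chi-square per degree of freedom 22.4 to 485).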

Additional observations from a re-analysis of the deposited data

How the results depend on the processing

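With edgeR 0 of 495 genes were called in each comparison, and only settings that changed the test, the filter or the libraries made calls. DESeq2 called 2 genes for KO against Het in M2 eggs, 2 in PN5 zygotes and 4 in early 2-cell embryos, 4 for PN5 against M2 in Het and 1 in KO, and 40 for the early 2-cell stage against PN5 in Het and 13 in KO, and among the 40 it called 1 of the 3 anchoring-protein genes, Akap7. limma-voom called 11 for the early 2-cell stage against PN5 in Het. With no low-count filter edgeR called 1 gene between the genotypes of early 2-cell embryos, 3 and 1 for the early 2-cell stage against PN5 in Het and KO, and 2 for the change of the KO effect from PN5 to the early 2-cell stage. Without the 4 libraries apart on the first component, a setting added after seeing the data, the same comparisons gave 1, 8, 3 and 2. Leaving out each library in turn gave 0 to 8 called genes for KO against Het at PN5, 0 to 1 in early 2-cell embryos, 0 to 4 and 0 to 1 for PN5 against M2 in Het and KO, 0 to 32 and 0 to 3 for the early 2-cell stage against PN5 in Het and KO, and 0 to 4 and 0 to 2 for the change of the KO effect from M2 to PN5 and from PN5 onward. Apart from Akap7 under DESeq2, none of these calls was Akap12, Akap7 or Akap8l, and the cause was not tested. With the replicate number as a block 0 genes were called in all 10 comparisons, and 0 for M2 eggs when the M2 numbers were crossed, as a correlation of -0.139 between same-numbered libraries hints.

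The mean share of Akap7 was 0.711% where the 10 leading mRNAs were left out of the denominator, which makes every share larger, against 0.443%. With single libraries left out the mean share was 0.317% to 0.446% for Akap12, 0.407% to 0.466% for Akap7 and 0.0182% to 0.0327% for Akap8l. Log2 fold changes of Akap12 kept their sign in all settings run for KO against Het at PN5 (-3.02 to -0.92), PN5 against M2 in Het (1.03 to 2.22) and the early 2-cell stage against PN5 in Het (-7.43 to -2.91), and turned in 11 of 23 for PN5 against M2 in KO. Those of Akap7 kept it at PN5 (-1.54 to -0.5) and against PN5 in Het (-4.13 to -2.17) and KO (-3.57 to -0.97), and turned without M2 Het replicate 1 for PN5 against M2 in Het (-0.09) and in 2 of 23 settings for PN5 against M2 in KO (0.26, lowest -0.28), without M2 KO replicate 1 and without PN5 KO replicate 1. For KO against Het, Akap12 turned in 3 settings each at M2 and the early 2-cell stage, and Akap7 in 1 each. The early 2-cell libraries limit the depth most: 1 count there is 0.0128% to 0.0944% of the protein-coding counts.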
